A study of Bombyx mori with 4 samples.

Results

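The loci described here had more RNA after 3 h than after 1 h of culture in silkworm prothoracic glands, and by a similar amount whether or not prothoracicotropic hormone (PTTH) was in the medium. They were chosen from the authors' table of FPKM, a count of fragments divided by transcript length in kilobases and by library size, by 4 ratios of (FPKM + 1). A member averaged 1 FPKM or more across the 4 libraries and had a 3 h over 1 h ratio of at least 1.5 in control glands and in PTTH glands. In both, the lower confidence limit at 3 h lay above the upper limit at 1 h. Its PTTH over control ratio was also less than 1.5-fold in either direction at 1 h and at 3 h. The rule was met by 157 of the 14622 loci in the table, or of the 8547 that reached a mean of 1 FPKM and are called tested loci below, which is 1.84%. Thresholds of 1.5-fold and more below are on the (FPKM + 1) scale, and folds given for a single locus are plain ratios of FPKM.

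RNA was sequenced from Bombyx mori glands in 4 groups, namely PTTH 3 h, PTTH 1 h, control 3 h and control 1 h, with 1 library each. The larvae were a commercial racial hybrid at day 4 of the fifth instar. Their glands were held for 30 minutes in 100 microliters of Grace's insect medium, and then for 3 or 1 h at room temperature in the same medium, with 10 nM recombinant PTTH in the PTTH groups and without it in the control groups. The glands of a pair were divided between medium with and without PTTH, 12 to 18 larvae gave 1 preparation of RNA, and each library was made from 2 such preparations combined. All 4 groups therefore share dissection, pre-incubation and culture, and no uncultured gland was among them.

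The prothoracic gland makes ecdysteroids, the steroid hormones that bring about moulting and metamorphosis. PTTH, a peptide from the brain, binds the receptor tyrosine kinase Torso on gland cells, activates the ERK pathway and raises ecdysteroid output. A gland in culture is cut off from the brain and the haemolymph, which is why glands without hormone are kept beside treated ones.

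The design limits every value below. The 3 h and the 1 h libraries came from different gland pairs, so culture time and larval pool cannot be told apart. At each time the PTTH and the control glands were partners from shared pairs, so the PTTH comparison does not repeat the control comparison in other animals. With 1 library a group there was no replicate check, no test and no p-value, and the members' culture ratios are a description, since they chose the members. In whole glands, a change in RNA per cell and a change in the share of a cell type cannot be told apart. No gene names accompany the loci in the table, so the functions of the members are not given here and the tissue label was not checked against marker genes. Loci are given by their scaffold position as the table lists it, on a genome build that is not given in the sources used here, and no sequence is shown.

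The authors' confidence limits imply between 8134930 and 10294100 fragments per library, taking the upper limit to lie 2 Poisson standard deviations above a value. No member was listed at 0 in any library. Of the 157 members, 109 rested on at least 100 implied fragments in every library and 13 on fewer than 20 in at least 1 library, always a 1 h library. Errors given as ± are standard errors from these fragments and cover counting error only.

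Members were higher at 3 h by about 2-fold at the median. The median log2 ratio of (FPKM + 1), 3 h over 1 h, was 0.94 in PTTH glands and 0.90 in control glands, against -0.03 and 0.06 over the tested loci. In PTTH glands the members ran from 0.59 to 2.62 and in control glands from 0.59 to 2.44, the lower ends being set by the rule. The median member had 24.4 FPKM in PTTH 3 h and 11.5 FPKM in PTTH 1 h. In the control glands it had 23.6 FPKM after 3 h and 12.5 FPKM after 1 h. Rescaling every library to the same total FPKM lowered the median of the tested loci by 0.11 in the control comparison and by 0.09 in the PTTH comparison. The members' medians were then 0.86 in PTTH glands and 0.80 in control glands.

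At a ratio of (FPKM + 1) of at least 2, 42 members were higher in both kinds of gland, 69 in PTTH glands and 57 in control glands. Of the tested loci, 0.702% were 2-fold or more higher in both with intervals apart, 3.47% in PTTH glands and 1.74% in control glands. On that scale 9 members were at least 3-fold higher in both, 3 at least 4-fold and 1 at least 5-fold. By plain ratios of FPKM, 61 members were at least 2-fold higher in both, 19 at least 3-fold, 7 at least 4-fold and 4 at least 5-fold.

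The demand for a rise in both kinds of gland removed most of the loci that were higher in either. Of the tested loci, 641 (7.5%) were 1.5-fold or more higher at 3 h with intervals apart in PTTH glands, 659 (7.71%) in control glands, and 225 (2.63%) in both. In PTTH glands alone there were 416 and in control glands alone 434. The 157 members are 69.8% of the loci higher in both, 24.5% of those higher in PTTH glands and 23.8% of those higher in control glands. The other 68 loci higher in both stood outside the limits on PTTH over control. At 3 h, PTTH was at least 1.5-fold above control in 46 of these and at least 1.5-fold below it in 16, and at 1 h in 11 and 6. Those 68 had a median culture log2 ratio of 1.49 in PTTH glands and 0.91 in control glands.

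**Figure D1:**
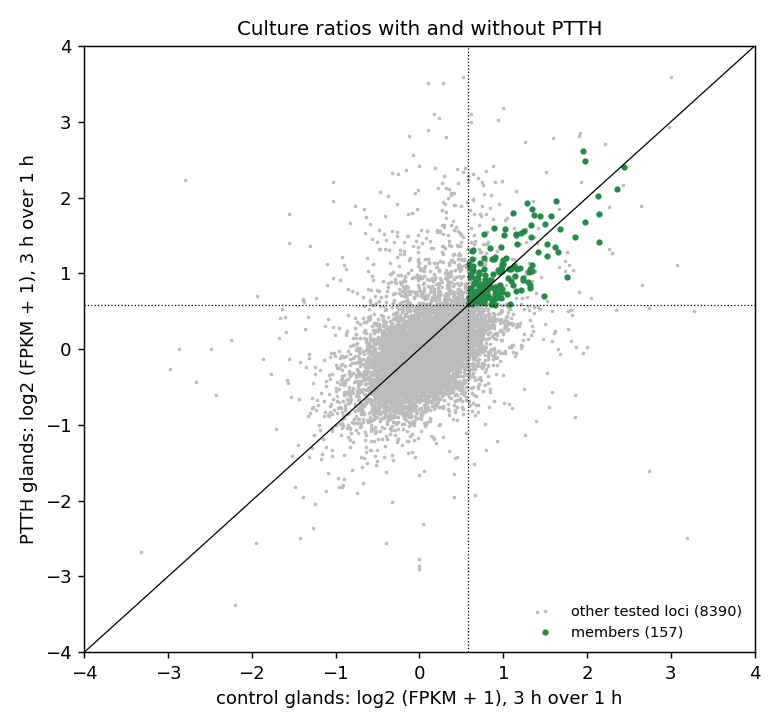
Log2 ratio of (FPKM + 1), 3 h over 1 h, in PTTH glands (vertical axis) against control glands (horizontal axis), for 157 members (green) and the other tested loci (grey), 1 point per locus. Dotted lines mark the 1.5-fold demand of the rule and the solid line equal ratios; the members lie around that line, up to 2.62 in PTTH glands and 2.44 in control glands, and 7 other loci fall outside the plotted range of 4.

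The member with the largest ratio in both kinds of gland, taking the smaller of its ratios, was XLOC_014207 at nscaf651 94517 to 96392. It had 7.68 FPKM (limits 5.62 to 9.74) in PTTH 3 h and 0.644 FPKM (0.0365 to 1.252) in PTTH 1 h. In the control glands it had 10.4 FPKM (7.97 to 12.8) after 3 h and 1.10 FPKM (0.269 to 1.93) after 1 h. Both 1 h values were near the detection limit, with 4.50 implied fragments in PTTH 1 h and 7.01 in control 1 h, and both 3 h values stood clear of them. The log2 ratios were 2.40 ± 0.32 with PTTH and 2.44 ± 0.32 without.

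The next was XLOC_004378 at nscaf2795 1615443 to 1617479, with log2 ratios of 2.11 ± 0.20 in PTTH glands and 2.35 ± 0.22 in control glands. It had 19.3 FPKM in PTTH 3 h and 3.71 FPKM in PTTH 1 h. Control glands had 16.8 FPKM after 3 h and 2.48 FPKM after 1 h. The intervals of PTTH and control overlapped at both times for these first 2 members.

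A short locus at nscaf2838 34611 to 35283 was the third whose ratio of (FPKM + 1) was at least 4 in both. It had 8.59 FPKM in PTTH 3 h and 1.37 FPKM in PTTH 1 h, and 12.9 FPKM in control 3 h and 2.17 FPKM in control 1 h. Control 3 h was the highest library here, and its interval lay above that of PTTH 3 h. The locus at nscaf3097 2657345 to 2659376 had the same order, with 6.78 FPKM in PTTH 3 h and 1.44 FPKM in PTTH 1 h, against 10.2 FPKM in control 3 h and 1.86 FPKM in control 1 h, but its PTTH and control intervals overlapped at both times.

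The best measured of the large differences was a long locus at nscaf2887 351878 to 376330, which spans 24.5 kb. It had 64.1 FPKM (61.9 to 66.4) in PTTH 3 h and 18.0 FPKM (16.8 to 19.2) in PTTH 1 h, a 3.57-fold difference. In the control glands it had 74.1 FPKM (71.5 to 76.6) after 3 h and 16.1 FPKM (14.8 to 17.3) after 1 h, a 4.61-fold difference. At least 700.8 implied fragments stood behind each value, and the log2 ratios were 1.78 ± 0.05 with PTTH and 2.14 ± 0.06 without. The log2 ratio of PTTH over control was -0.20 at 3 h, with intervals apart, and 0.15 at 1 h, with intervals overlapping.

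Neighbouring loci on nscaf1108 moved by like amounts. The one at 292247 to 302760 had 17.5 FPKM in PTTH 3 h and 3.80 FPKM in PTTH 1 h, with 16.0 and 4.51 FPKM in control 3 h and control 1 h. The next tested locus, at 341697 to 343713, had 16.3 FPKM in PTTH 3 h and 4.11 FPKM in PTTH 1 h, with 14.8 and 4.33 FPKM in control 3 h and control 1 h. Both 3 h libraries were above both 1 h libraries at each locus, which the rule fixes for every member. PTTH and control intervals overlapped at both times. At nscaf2759 461217 to 474395 the PTTH libraries had 23.1 FPKM after 3 h and 7.03 FPKM after 1 h, and the control libraries 17.6 FPKM after 3 h and 4.85 FPKM after 1 h. PTTH was the higher at both times there, with intervals apart at 3 h and overlapping at 1 h.

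**Figure D2:**
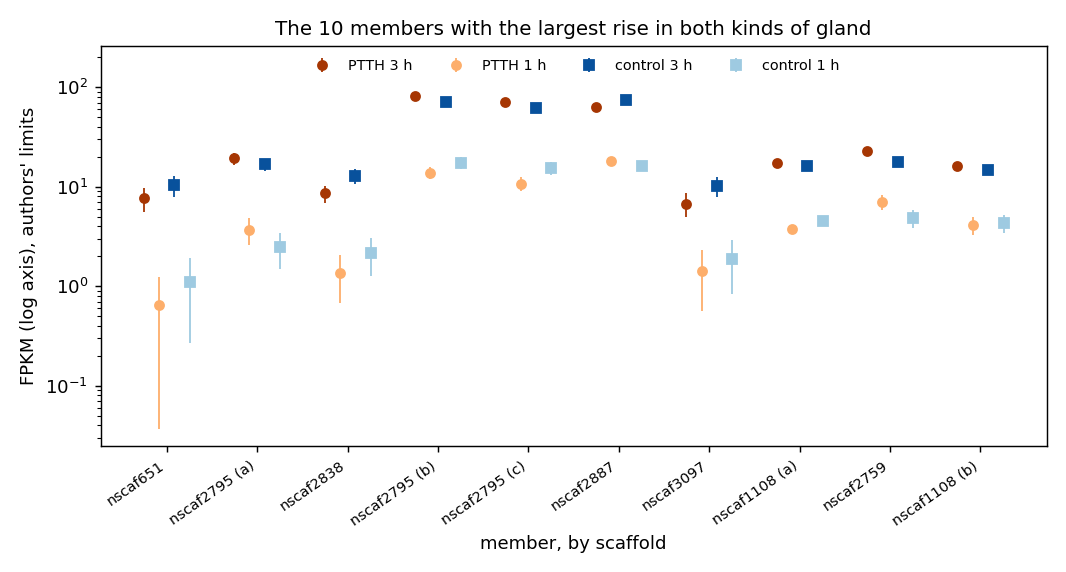
FPKM on a log axis, with the authors' confidence limits as bars, in PTTH 3 h, PTTH 1 h, control 3 h and control 1 h, for the 10 members with the largest smaller culture ratio and at least 20 implied fragments in each 3 h library. Letters number members of a scaffold in order of that ratio. In each member both dark 3 h points lie above both pale 1 h points, which the rule fixes in advance.

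A row of 8 consecutive loci on nscaf2795, from 1615443 to 1682261, was higher at 3 h throughout, and 4 of the 8 were members. This row was singled out after its values were seen. Over its 66.8 kb the culture log2 ratios ran from 1.19 to 2.62 in PTTH glands and from 0.79 to 2.35 in control glands, and intervals lay apart in both at all 8 loci. Summed over the row, the libraries had 258 FPKM in PTTH 3 h and 44.7 FPKM in PTTH 1 h, against 207 FPKM in control 3 h and 55.8 FPKM in control 1 h.

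The highest of the row were a pair of loci of equal span. The one at 1681490 to 1682261 had 82.3 FPKM in PTTH 3 h and 13.9 FPKM in PTTH 1 h, with 72.0 and 17.5 FPKM in control 3 h and control 1 h. The other, at 1656057 to 1656828, had 71.0 FPKM in PTTH 3 h and 10.7 FPKM in PTTH 1 h, with 62.6 and 15.4 FPKM in control 3 h and control 1 h. In both, PTTH was below control at 1 h and above it at 3 h, with intervals apart at 3 h for the first and at 1 h for the other, and the culture ratio was larger with PTTH, at log2 2.49 ± 0.10 against 1.98 ± 0.10 for the first and 2.62 ± 0.12 against 1.95 ± 0.11 for the other. The fourth member of the row, at 1638094 to 1638829, was low, with 2.37 FPKM in PTTH 3 h and 0.473 FPKM in PTTH 1 h, against 1.804 FPKM in control 3 h and 0.517 FPKM in control 1 h.

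The 4 loci of the row that were not members failed only the limits on PTTH over control. The locus at 1644957 to 1645728 had 38.0 FPKM in PTTH 3 h and 13.7 FPKM in control 3 h, from similar values of 6.62 and 7.49 FPKM at 1 h. Loci at 1672372 to 1673164 and 1619809 to 1623572 were also over 1.5-fold above control at 3 h. The locus at 1629928 to 1630699 went the other way, with 8.05 FPKM in PTTH 3 h against 18.5 FPKM in control 3 h, and at 1 h with 2.40 FPKM in PTTH glands against 7.06 FPKM in control glands. Culture ratios were thus alike in direction along the row while PTTH over control differed from locus to locus. Of the 8 loci, 4 share a span of 771 bases, which 10 loci of the whole table have, 5 of them on nscaf2795. How reads that match several similar loci were assigned is not given in the sources used here, so the split of the level between these loci is uncertain.

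**Figure D3:**
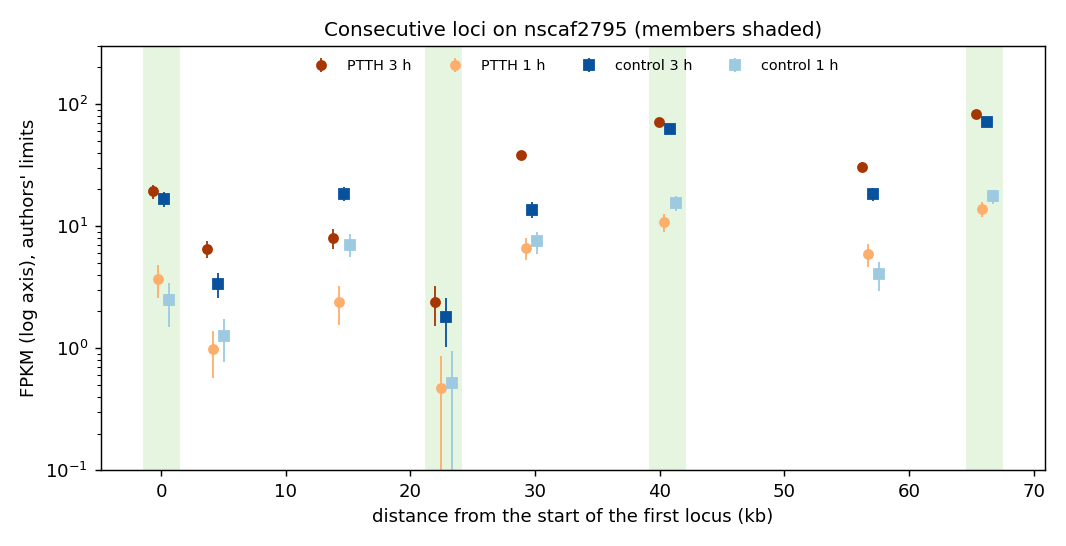
FPKM on a log axis, with the authors' confidence limits as bars, of the 8 consecutive loci on nscaf2795 against distance in kb from the start of the first, in PTTH 3 h, PTTH 1 h, control 3 h and control 1 h (points are offset sideways within a locus). Shading marks the 4 members; at every locus each 3 h point is above the 1 h point of the same kind of gland.

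The members of that row were separated by other loci, while elsewhere some members stood beside each other. Of the 157, 39 had a member as the next or previous tested locus on the scaffold, where 3.39% of the tested loci have such a neighbour. They form 15 pairs and 3 runs of 3. The gap between consecutive members had a median of 9.69 kb and ran from 0.733 to 141 kb, and no member overlapped another locus of the table. The 251 non-members next to a member had median culture log2 ratios of 0.07 in PTTH glands and 0.17 in control glands, against -0.03 and 0.06 over the tested loci.

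The 3 runs lay on nscaf2891, nscaf1681 and nscaf3041. On nscaf2891 the locus at 322852 to 327402 had 123 FPKM in PTTH 3 h and 38.5 FPKM in PTTH 1 h, with 108 and 37.4 FPKM in control 3 h and control 1 h. Beside it, the locus at 315797 to 318573 had 102 FPKM in PTTH 3 h and 50.0035 FPKM in PTTH 1 h, with 120 and 61.9 FPKM in control 3 h and control 1 h. The third, at 291578 to 294750, had 43.5 FPKM in PTTH 3 h and 21.0 FPKM in PTTH 1 h, against 55.3 FPKM in control 3 h and 21.8 FPKM in control 1 h. These are well expressed loci whose 1 h intervals with and without PTTH overlapped, and the order of PTTH and control at 3 h was not the same in all 3.

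On nscaf1681 the run from 957067 to 1086456 holds loci of 29.8 and 41.7 kb beside a shorter one. The locus at 984866 to 1014682 had 10.9 FPKM in PTTH 3 h and 3.11 FPKM in PTTH 1 h, against 9.22 FPKM in control 3 h and 3.42 FPKM in control 1 h. The longer one, at 1044800 to 1086456, had 21.1 FPKM in PTTH 3 h and 9.68 FPKM in PTTH 1 h, against 19.8 FPKM in control 3 h and 9.85 FPKM in control 1 h. The run on nscaf3041, from 1424771 to 1488391, was low, between 4.22 and 16.4 FPKM in the 3 h libraries and between 2.04 and 5.96 FPKM in the 1 h libraries. At each locus of the 3 runs both 3 h values were above both 1 h values, which the rule fixes for every member.

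Several pairs lay within a few kb. On nscaf2855 a short locus at 1570664 to 1570946 had 61.8 FPKM in PTTH 3 h and 21.1 FPKM in PTTH 1 h, with 50.5 and 22.2 FPKM in control 3 h and control 1 h. The long locus that follows it, at 1572645 to 1584491, had 86.1 FPKM in PTTH 3 h and 29.7 FPKM in PTTH 1 h, with 64.2 and 31.4 FPKM in control 3 h and control 1 h. Their culture log2 ratios were alike, at 1.503 for both with PTTH, and 1.15 for the short and 1.01 for the long one without. A like pair on nscaf3063, at 2192225 to 2206782 and 2207515 to 2212155, had log2 ratios of 0.87 and 0.86 with PTTH and 0.65 and 0.72 without. Whether loci this close belong to 1 transcription unit was not tested.

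The 157 members lay on 78 of the 354 scaffolds with a tested locus, and 41 scaffolds had 1 member each. The scaffold nscaf2888 had the most, 10 among 267 tested loci. On nscaf2833, 4 of 11 tested loci were members, as 2 pairs. The pair at 44789 to 48530 and 49936 to 56894 had 57.3 and 30.4 FPKM in PTTH 3 h and 26.4 and 13.0 FPKM in PTTH 1 h. Control glands had 49.4 and 28.1 FPKM at 3 h and 24.5 and 13.6 FPKM at 1 h. The other 7 tested loci of nscaf2833 had a median culture log2 ratio of 0.09 in PTTH glands and -0.28 in control glands. Their upper quartile was 1.18 and their highest value 1.95 in PTTH glands, against -0.02 and 0.34 in control glands.

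The members included some of the most abundant RNAs of the gland. The locus at nscaf2511 5369107 to 5371668 had 10701 FPKM (10659 to 10744) in PTTH 3 h and 6894 FPKM (6854 to 6934) in PTTH 1 h. In the control glands it had 10680 FPKM (10627 to 10734) after 3 h and 6875 FPKM (6839 to 6910) after 1 h. PTTH and control FPKM were nearly equal at each time, and the culture difference in FPKM was 1.55-fold in both kinds of gland. The implied fragments did not follow these values, with 253599 in PTTH 3 h and 117349 in PTTH 1 h. In the control glands they were 158229 after 3 h and 152227 after 1 h. The limits, or the fragments taken from them, are therefore uncertain for this locus, and the reason was not tested. Its log2 ratio of 0.63 with PTTH and 0.64 without lay just past the 1.5-fold demand. With each comparison centred on the median of the tested loci, the control ratio was 0.57, which is under the demand, and with every library at the same total FPKM both ratios were under it, at 0.53 with PTTH and 0.51 without. Upper-quartile scaling also gave 0.57 in control glands, so the locus was not a member under any of these 3 scalings.

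This locus made up 51.7% to 58.5% of the members' summed FPKM, depending on the library. With it, the members held 2.81% of all FPKM in PTTH 3 h and 1.72% in PTTH 1 h, with 2.65% in control 3 h and 1.72% in control 1 h. Without it, they held 1.36% in PTTH 3 h and 0.712% in PTTH 1 h, with 1.24% in control 3 h and 0.736% in control 1 h.

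Another 2 members had at least 906.0 FPKM in all libraries. At nscaf1898 9135881 to 9142328 the PTTH libraries had 2229 FPKM after 3 h and 1250 FPKM after 1 h, and the control libraries 2314 FPKM after 3 h and 1409 FPKM after 1 h. At nscaf2986 3421634 to 3431850 they had 2078 FPKM and 947 FPKM with PTTH, and 1491 FPKM and 906.0 FPKM without. The nscaf2986 locus was 2.19-fold higher at 3 h with PTTH and 1.65-fold higher without, and PTTH and control intervals lay apart at both times. For such abundant loci the limits are narrow, so intervals lie apart at small differences.

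Of the other abundant members, the locus at nscaf3031 495282 to 498361 was 2.06-fold higher at 3 h with PTTH and 1.99-fold without. It had 280.2 FPKM in PTTH 3 h and 136 FPKM in PTTH 1 h, against 287 FPKM in control 3 h and 144 FPKM in control 1 h. The locus at nscaf2876 1403557 to 1406432 had 266 FPKM in PTTH 3 h and 92.0 FPKM in PTTH 1 h, with 192 and 86.1 FPKM in control 3 h and control 1 h, and was thus 2.90-fold higher with PTTH and 2.23-fold without. At nscaf3026 2500217 to 2510152 the values were 166 FPKM in PTTH 3 h and 103 FPKM in PTTH 1 h, against 170.1 FPKM in control 3 h and 98.0 FPKM in control 1 h. Among tested loci of 1 to 5 FPKM mean 1.15% were members, of 5 to 20 FPKM 1.92%, of 20 to 100 FPKM 2.45%, and of at least 100 FPKM 1.08%.

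Long loci were more common among the members than among the tested loci, a feature the rule did not use. The span, from the first to the last base of a locus with introns included, had a median of 7.94 kb in members and 4.52 kb in tested loci. At least 10 kb was spanned by 63 members, which is 40.1% of them against 23.4% of the tested loci. Under 1 kb were 8.28% of members and 14.1% of the tested loci. The members ranged from 0.240 kb at nscaf1898 215385 to 215625 to 101 kb at nscaf3035 207714 to 308540. The longest had 39.9 FPKM in PTTH 3 h and 24.0 FPKM in PTTH 1 h, with 44.3 and 28.2 FPKM in control 3 h and control 1 h.

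The share of tested loci that were members went up with each band of span. It was 1.10% under 2 kb, 1.46% from 2 to 5 kb, 1.81% from 5 to 10 kb, 2.42% from 10 to 20 kb and 5.28% at 20 kb or more. Loci that met the mirror image of the rule, being lower at 3 h in both kinds of gland with PTTH and control within 1.5-fold, numbered 102 (1.19% of tested loci), and their median span was 2.25 kb. Their share was highest in the shortest band, with 2.03% under 2 kb, 1.19% from 2 to 5 kb and 1.05% from 5 to 10 kb. It was 0.336% from 10 to 20 kb and 0.391% at 20 kb or more, from 5 and 2 loci.

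Long loci rest on more implied fragments, on which the width of the intervals depends. The lowest implied fragment number over the libraries had a median of 92.0 under 2 kb and 527 at 20 kb or more. Among the 5582 loci with at least 100 implied fragments in every library, the share of members was 0.783% under 2 kb and 5.59% at 20 kb or more. For loci lower at 3 h by the mirror rule it was 2.43% under 2 kb and 0.224% at 20 kb or more. In the PTTH comparison by itself, 13.3% of loci of 20 kb or more and 6.09% of those under 2 kb were at least 1.5-fold higher at 3 h with intervals apart. In the control comparison by itself it was 18.6% and 4.99%. These bands share the 4 libraries and the 2 larval pools. The part of fragment number, of transcript length in FPKM, of RNA quality and of library preparation in this pattern was not tested.

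**Figure D4:**
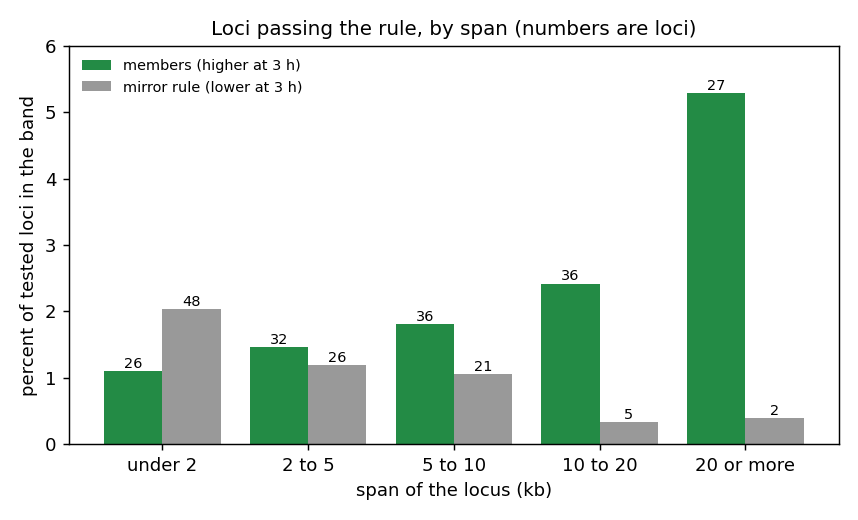
Percent of tested loci in each band of locus span (kb) that were members (green, higher at 3 h) or met the mirror rule (grey, lower at 3 h), with the number of loci over each bar. The share of members went up from 1.10% under 2 kb to 5.28% at 20 kb or more, while that of the mirror rule was 2.03% and 0.391% at these ends.

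PTTH and control libraries of a time were not identical for the members, although the rule kept their ratios of (FPKM + 1) within 1.5-fold. By plain ratios of FPKM, 11 members were at least 1.5-fold apart at 1 h or at 3 h. The rule used the PTTH over control ratios, so the shares of tested loci given with them are background from which nothing is read. The 1.5-fold limit alone was met at both times by 74.3% of the tested loci. The members' median log2 ratio of PTTH over control was -0.03 at 3 h and -0.06 at 1 h, against -0.19 and -0.07 over the tested loci. At 3 h, PTTH was above control in 73 members and below it in 84, where 33% of tested loci were above. At 1 h it was above in 46 and below in 111, where 32.7% of tested loci were above. With each ratio centred on the median of the tested loci, 109 members were above at 3 h and 83 at 1 h, so the balance depends on the scaling. Centring moves the 3 h ratios by 0.19, and relative to that shift the members' median at 3 h was 0.16.

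The authors' intervals of PTTH and control overlapped at both times in 88 members and lay apart at 1 h, at 3 h or at both in the other 69. At 3 h, intervals lay apart with PTTH higher in 33 members and lower in 31, against 13.1% and 34.4% of tested loci. At 1 h they lay apart with PTTH higher in 4 and lower in 17, against 3.32% and 10.3% of tested loci.

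**Figure D5:**
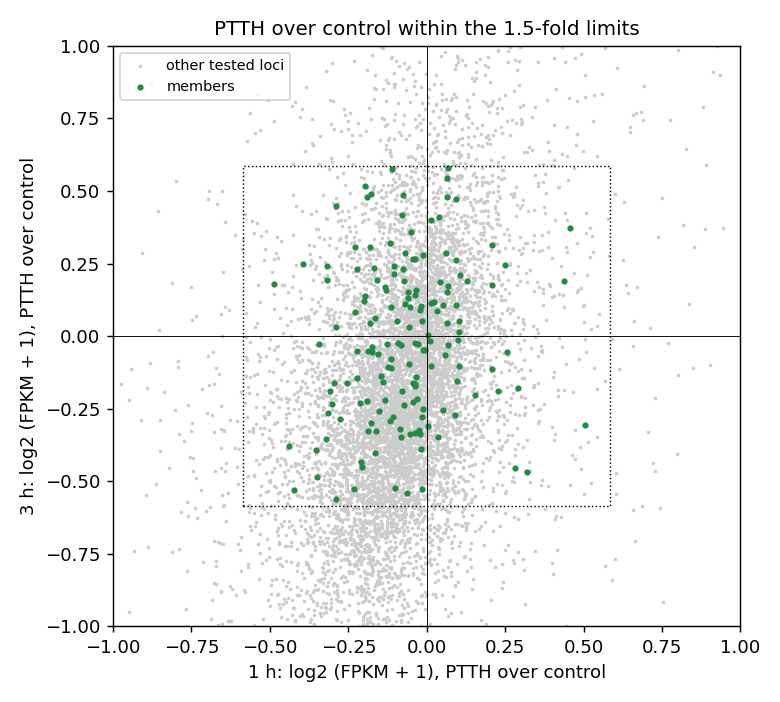
Log2 ratio of (FPKM + 1), PTTH over control, at 3 h (vertical axis) against 1 h (horizontal axis), for members (green) and other tested loci (grey), 1 point per locus. The dotted square marks the 1.5-fold limits of the rule; the members spread over its whole height at 3 h, with 73 above and 84 below 0, and 635 tested loci fall outside the plotted range of 1.

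The culture ratio differed between the kinds of gland by little in most members. The PTTH minus control difference of the log2 ratios had a median of 0.05 and quartiles of -0.14 and 0.23, and 93 members had ratios within 0.25 of each other. It was positive in 87 members and negative in 70, and 39.2% of tested loci had a positive one, a share from which nothing is read since the rule used both ratios. With both ratios centred, 105 were positive. At least 0.5 apart were 12 members with the larger ratio in PTTH glands and 4 with the larger in control glands, within the bounds that the rule sets.

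The most unequal members show both directions. The locus at nscaf3034 348840 to 353182 had 29.1 FPKM in PTTH 3 h and 9.56 FPKM in PTTH 1 h, with 21.1 and 11.9 FPKM in control 3 h and control 1 h. It was 3.05-fold higher with PTTH and 1.77-fold without. At nscaf2951 322010 to 330885 the values were 5.68 FPKM in PTTH 3 h and 1.20 FPKM in PTTH 1 h, against 3.67 FPKM in control 3 h and 1.52 FPKM in control 1 h. In both, the PTTH library was the lower at 1 h and the higher at 3 h.

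The opposite order was seen at nscaf2889 1570964 to 1573608, with 26.4 FPKM in PTTH 3 h and 15.9 FPKM in PTTH 1 h, against 36.9 FPKM in control 3 h and 12.5 FPKM in control 1 h. It was 1.66-fold higher with PTTH and 2.94-fold without. The largest difference toward control glands, -0.81, was at nscaf2795 2154140 to 2154929 and rests on few fragments. That locus had 1.95 FPKM in PTTH 3 h and 0.525 FPKM in PTTH 1 h, against 2.64 FPKM in control 3 h and 0.0758 FPKM in control 1 h, the last from 1.00 implied fragment. These 4 loci were picked with their values in view, as ends of the range of differences.

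Values ran on without a gap across the 1.5-fold threshold. The 5 members just inside had a smaller culture log2 ratio of 0.59, from nscaf2852 1591093 to 1596312 to nscaf2511 840488 to 857456. The first of these had 11.8 FPKM in PTTH 3 h and 7.52 FPKM in PTTH 1 h, against 15.2 FPKM in control 3 h and 7.63 FPKM in control 1 h. The 5 loci just outside, with all other demands met, had one between 0.57 and 0.58, led by nscaf3053 261203 to 287431. That locus had 6.76 FPKM in PTTH 3 h and 3.37 FPKM in PTTH 1 h, against 6.05 FPKM in control 3 h and 3.70 FPKM in control 1 h. Loci that were under 1.5-fold in at least 1 kind of gland and met all other demands numbered 704. A further 32 met the demands on size and PTTH and had overlapping culture intervals, and their median span was 0.892 kb.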

How the data were processed

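Expression was measured by paired-end mRNA sequencing in 4 libraries. Per the submitters' processing notes, CASAVA 1.8.0, TopHat and SAMtools were used, without roles, and the deposited table names Cuffdiff. The authors deposited FPKM values with lower and upper confidence limits for 14622 loci. Genome build, annotation, scaling between libraries and the kind of limit are unstated in the labels and headers. The 5 ratio columns were not used. Of the identifiers, 0 matched the 18210 genes of the RefSeq list of assembly ASM3026992v2.

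Each ratio is a log2 of (FPKM + 1), a scale on which low loci change by less than in fact; the rule's thresholds are on this scale, and folds of single loci are plain ratios of FPKM. Implied fragments came from the upper limits, and among values under 20 fragments 82.6% to 88.5% per library were multiples of 0.5 within 0.02. The rule was also run on simulated libraries that hold counting error only. They hold no variation between larval pools or library preparations, so nothing about the members is concluded from them. Members and lists were chosen with earlier results of these data known. The gene lists and marker lists could not be used without gene names. By rule the text names 2 identifiers, and by position the 10 members with the largest smaller culture ratio and at least 20 implied fragments in each 3 h library, the 6 most abundant, the 5 at either side of the threshold, neighbours, and the longest and shortest. Alternatives were other pseudocounts, filters, scalings and demands of the rule. Python 3.11.15, numpy 2.4.6, pandas 2.3.3 and matplotlib 3.10.9 were used.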

Additional observations from a re-analysis of the deposited data

How the results depend on the processing

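The number of members was 157, and 42 of them were at least 2-fold higher in both kinds of gland on the (FPKM + 1) scale. A pseudocount of 5 FPKM gave 93 members, 87 of them among the 157, and 21 at 2-fold, since it shrinks the ratios of low loci, and it lowered the members' median log2 ratio in PTTH glands to 0.70. A demand of 2-fold gave 42 members, and overlapping PTTH and control intervals in place of the 1.5-fold limit gave 91, of which 88 were among the 157. The other alternatives gave 110 (same total FPKM) to 225 (no demand on PTTH over control) members and 32 to 50 at 2-fold. The members' medians otherwise stayed between 0.86 and 1.03 in PTTH glands. In control glands they ran from 0.69, with the pseudocount of 5 FPKM, to 0.99. Their median difference between the kinds of gland, 0.05, lay between 0.02 and 0.14. Of 116 culture ratios of named members, 51 moved beyond counting error with a pseudocount of 5 FPKM and 28 with the same total FPKM. With a pseudocount of 0.1 FPKM 8 moved, with centring 8 and with upper-quartile scaling 6. Their direction is no check, since a pseudocount cannot reverse a ratio and the scalings moved ratios by less than the 1.5-fold demand. No paired analysis was possible because each group has 1 library, and no library could be left out for the same reason.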
